A study of Mus musculus with 4 samples.

Results

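Aminoacyl tRNA synthetases join each amino acid to its tRNA, and the amino acid response is the program by which cells short of amino acids raise their synthesis, uptake and charging. Members were the array's gene rows with the name of a synthetase or of Atf4, Asns, Trib3, Chac1, Psat1, Psph, Phgdh, Shmt2, Slc7a11, Slc3a2, Nupr1 or Ppp1r15a. A detection p is meant to set a signal against the negative control beads of an array, though some bright rows had one above 0.05. A row was kept where its deposited detection p was under 0.05 on at least 2 of the 4 arrays. This held for 40 of 49 rows with such a name, out of 11538 genes tested: 17 cytosolic synthetases, 14 mitochondrial synthetases and 9 amino acid response genes. Ppp1r15a had a row only under its older name Myd116, so it was not chosen by name and is described apart from the counts.

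RNA came from LSK cells, a marrow fraction that lacks lineage markers, carries Sca-1 and Kit and holds stem and early progenitor cells, sorted from C57BL6/J mice aged 12 to 16 weeks. All mice had received pIpC, a double-stranded RNA mimic, 1 week before harvest. The 2 control arrays (replicates 1 and 2) came from mice labelled only as control, and the 2 knockout arrays (replicates 1 and 3) from B-myb floxed-MxCre mice. Each array held RNA from its own pool of 3 to 5 mice. In the knockouts the gene of the transcription factor B-Myb, now Mybl2, is flanked by recombination sites and cut by a Cre driven from the interferon-inducible Mx promoter, which is not restricted to blood cells. The labels do not say whether the controls carried the floxed allele or Cre.

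In the cytosol a single set of synthetases serves protein synthesis, and several of them sit in a large multi-synthetase complex. Mitochondria use a second set, encoded by separate nuclear genes for most amino acids, to translate their own genome. Uncharged tRNA activates the kinase Gcn2, whose target eIF2-alpha slows general translation and favours that of the transcription factor Atf4. Atf4 with C/EBP partners then binds composite elements in genes of amino acid synthesis, transport and tRNA charging.

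Synthetases of both compartments tended to be somewhat higher in the knockout, and no single member passed the test over all genes. After background correction and quantile normalization, the median log2 change, knockout minus control, was 0.34 over 17 cytosolic and 0.32 over 14 mitochondrial synthetases, against −0.04 over all 11538 genes. The 9 response genes had a median of 0.27, with members on both sides of 0, and this dropped to 0.0091 when knockout replicate 1 was left out, to 0.08 for control replicate 2 and to 0.14 for knockout replicate 3. Without knockout replicate 3 the cytosolic and mitochondrial medians were 0.16 and 0.18, and the cytosolic one was 0.21 without control replicate 2. When the arrays were instead scaled to a common median, the change of all genes was −0.70 and the class medians turned to −0.42, −0.56 and −0.65, which lay 0.28, 0.14 and 0.05 above that of all genes. A level in such bulk RNA does not tell fewer cells of a type from less RNA per cell.

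Of the 40 members 31 had a higher mean in the knockout (77.5%, against 46.4% of all genes). On leaving out single arrays that count lay between 27, without control replicate 2, and 32, and under median scaling it was 1, with 29 members above the median of all genes. The genotypes did not overlap for 50.1% of all genes. Both knockout values lay above both control values for 17 members (42.5%, against 22% of all genes) and below them for 2 (5%, against 28.1%). Of these 2, Nars2 passed the detection filter through the control arrays only. An unadjusted limma p under 0.05 was found for 15.3% of all genes. Among the members there were 3 higher members (7.5%, against 6.55% of all genes) and 1 lower (2.5%, against 8.77%). The higher share was thus near the background here, but without background correction it was 17.5% (7 members) against 7.65% of all genes, and under median scaling 0% against 0.173%. No member reached an adjusted p under 0.05, as for 0% of all genes. The lowest adjusted p among the members was 0.237.

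**Figure D1:**
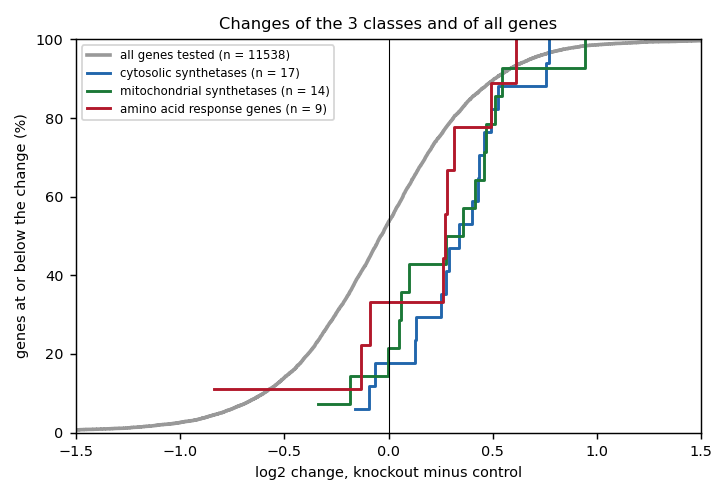
Cumulative share of genes (vertical axis, percent) at or below each log2 change, knockout minus control (horizontal axis), for all 11538 genes and for the 3 classes of members. The curves of both synthetase classes lie to the right of that of all genes over most of their range, with medians of 0.34 and 0.32 against −0.04.

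Other features of the arrays moved with genotype, and their part in these values was not tested. The knockout arrays had 10761 and 8797 gene rows with a detection p under 0.05 against 12297 and 13439 on the controls. Their median raw signals of 97.4 and 103.8 nonetheless exceeded the 91.2 and 84.2 of the controls. The median negative control signal was likewise higher, at 94.4 and 99.9 against 86.7 and 80.7. The Mybl2 row stood at 7.19 and 6.52 on the log2 scale in control cells against 6.72 and 6.62 in knockout cells, a change of −0.18 ± 0.28 (SE). Its probes may lie outside the deleted part, so this is no test of the labels. Of the gate genes, Ly6a, which encodes Sca-1, was at −0.20 ± 0.34 and Kit at −0.86 ± 0.21 (limma, adjusted p = 0.237). Of 8 granulocyte-monocyte progenitor markers 7 were measured, with a change above 0 for 6 and below 0 for 1. The lower one, Csf1r (−0.02 ± 0.44), overlapped between genotypes and had no detection p under 0.05 on knockout replicate 3. All 7 lay above the median change of all genes in every scaling tried. Their summed linear level was 9735 and 8824 in control cells against 15274 and 21760 in knockout cells. All 6 megakaryocyte markers were lower in every scaling, with sums of 1586 and 1543 against 531 and 494. Of these, Ppbp had a detection p under 0.05 on the control arrays only, so the filter favoured its being lower. Neutrophil markers (7 measured of 8) summed to 1482 and 4397 in the controls but to 16123 on knockout replicate 1 and 1031 on knockout replicate 3. Of 7 stem and progenitor markers 3 were measured, all lower in every scaling, with sums of 1687 and 2558 against 836.4 and 871.1; Flt3, Mecom, Hlf and Procr did not pass the detection limit. Mast and basophil markers (4 of 5) summed to 1767 and 2048 against 1023 and 742.1. Gata2 (−1.18 ± 0.30) was the brightest of them and made up most of the control sums. Prss34 and Cpa3 were also below both controls in both knockouts, while Mcpt8 (0.27 ± 0.43) had a higher mean with overlapping genotypes. Erythroid markers (7 of 7) summed to 3993 and 3230 against 2300.3 and 7372, with the globins Hba-a1 and Hbb-b1 carrying the sum on knockout replicate 3, while Car1 (−2.36 ± 0.25), Klf1 (−0.65 ± 0.21) and Epor (−0.57 ± 0.21) lay below both controls in both knockouts. B cell markers (3 of 6) summed to 360.2 and 259 against 296.1 and 268.3, and Ms4a1 and Pax5 did not pass the limit. Of 3 measured of 4 T and NK cell markers, whose sum was 1423 and 1154 against 2394 and 3654, Nkg7 made up most of the sum (1.24 ± 0.28), while the T cell genes Cd3d (0.25 ± 0.22) and Cd3e (−0.14 ± 0.20) were dim.

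Among the cytosolic synthetases the methionyl enzyme gene Mars differed most. It was at 6.68 and 6.18 in control cells against 6.86 and 7.54 in knockout cells. Both knockouts exceeded both controls, and the change was 0.77 ± 0.32 (limma, unadjusted p = 0.0527, adjusted p = 0.330). A second, brighter row for the same gene stood at 8.30 and 7.78 in control cells against 8.78 and 9.11 in knockout cells, a difference of 0.91 in the same direction.

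Eprs encodes the fused glutamyl and prolyl enzyme. It was at 6.73 and 7.53 in control cells against 8.08 and 7.69 in knockout cells, so the genotypes separated narrowly and control replicate 1 was the low array. Its change was 0.76 ± 0.33 (adjusted p = 0.345), and 0.36 without control replicate 1. Farsa, the catalytic subunit gene of the phenylalanyl enzyme, showed the widest control spread. It was at 5.66 and 7.09 in the controls, where the deposited signals were 141 with a bead standard error of 4.82 and 213.7 with 13.7, and at 6.65 and 6.90 in the knockouts, inside the control range. The mean change of 0.40 ± 0.47 therefore rests on control replicate 1 and was −0.31 without it. Farsb, the partner subunit, was at 0.25 ± 0.21.

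Rars, Kars, Aars and Lars also had both knockouts above both controls, with the controls of Aars and Lars well apart. Rars, the arginyl enzyme gene, was at 8.83 and 8.59 against 9.23 and 9.18 (0.49 ± 0.21, adjusted p = 0.336). Kars, the lysyl enzyme gene, whose transcripts encode both the cytosolic and the mitochondrial form, was at 8.35 and 8.18 against 8.54 and 8.91 (0.46 ± 0.23).
Aars, the alanyl enzyme gene, was at 8.95 and 8.52 against 9.27 and 9.06 (0.43 ± 0.24). In each of these the knockouts lay above the controls. Lars, the leucyl enzyme gene, was at 9.25 and 8.75 against 9.59 and 9.28 (0.43 ± 0.26), with knockout replicate 3 barely above control replicate 1. Tars, the threonyl enzyme gene, overlapped between genotypes, at 5.29 and 4.78 against 5.15 and 5.97 (0.53 ± 0.34).

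The remaining cytosolic enzymes had smaller changes. Those above 0 were Nars (0.34), Wars (0.29), Sars (0.28), Iars (0.13) and Yars (0.13), and Nars alone of these had separate genotypes. Qars (−0.06), Vars (−0.09) and Hars (−0.16) were the 3 with a mean below 0, each with overlapping genotypes. Qars had no detection p under 0.05 on the knockout arrays although its signals of 389.7 and 330.9 there were well above the 95th percentile of the negative controls (101.5 and 112.8). It thus passed the detection filter through the control arrays only. In all, 8 of 17 cytosolic enzymes had non-overlapping genotypes, all with the knockout higher (47.1%, against 22% of all genes), and 0 passed an unadjusted p of 0.05 in limma, against 6.55% of all genes for higher calls.

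**Figure D2:**
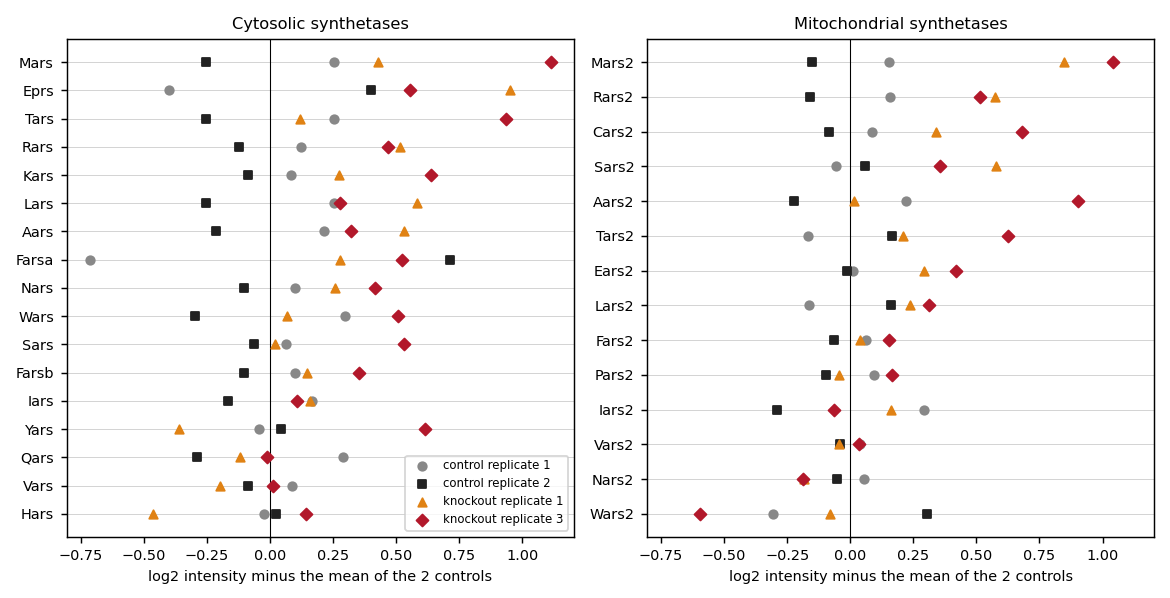
Log2 intensity of each cytosolic (left) and mitochondrial (right) synthetase on the 4 arrays, as the difference from the mean of the 2 controls (horizontal axis), with genes sorted by mean change (vertical axis). Knockout replicate 3 (diamonds) reaches furthest right for many genes, such as Mars at 1.11, while for Qars, Vars and Hars the genotypes overlap.

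Among the mitochondrial enzymes the methionyl one again differed most. Mars2 was at 7.10 and 6.79 in control cells against 7.79 and 7.98 in knockout cells. Both knockouts stood clear of the controls, and the change of 0.94 ± 0.22, a 1.92-fold difference, had an unadjusted p of 0.00572 and an adjusted p of 0.237 in limma. A second Mars2 row was at 6.24 and 6.07 against 7.03 and 7.15, a difference of 0.93. Methionyl-tRNA starts every protein chain, and in mitochondria part of it is formylated for that purpose.

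Rars2, the arginyl enzyme gene, was at 7.78 and 7.46 in control cells against 8.19 and 8.13 in knockout cells (0.55 ± 0.21, unadjusted p = 0.0459, adjusted p = 0.316, limma). Sars2, the seryl enzyme gene, was at 4.89 and 5.01 against 5.53 and 5.31 (0.47 ± 0.21), close to the dimmest values above background. In both, the genotypes were separate. Cars2, the cysteinyl enzyme gene, was at 7.47 and 7.30 against 7.72 and 8.06 (0.51 ± 0.22), but a second row for it stood at 7.04 and 8.31 in control cells against 7.65 and 7.63 in knockout cells, a difference of −0.03. The rows of Cars2 thus disagreed, and with the second row the class median was 0.19. Tars2, the threonyl enzyme gene, was at 7.39 and 7.73 against 7.77 and 8.18 (0.42 ± 0.25). Aars2, the alanyl enzyme gene, overlapped, at 4.93 and 4.49 against 4.72 and 5.61 (0.46 ± 0.35).

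Ears2 (0.36) and Lars2 (0.27) also had both knockouts above both controls, whereas Fars2 (0.10), Pars2 (0.06), Iars2 (0.05) and Vars2 (−0.0040) stayed near 0 with overlapping genotypes. A dimmer second row of Ears2 was at −0.39. Nars2 (−0.19) and Wars2 (−0.34) had lower means, and neither had a detection p under 0.05 in the knockout, so the filter favoured their being lower. The interval of each change included 0, and the genotypes overlapped for Wars2. Without background correction the changes of Nars2 and Wars2 were −0.05 and −0.10. In all, 7 of 14 mitochondrial enzymes lay wholly above the controls (50%, against 22% of all genes) and 1, Nars2, wholly below (7.14%, against 28.1%). Mars2 and Rars2 had an unadjusted p under 0.05 (14.3%, against 6.55% of all genes for higher calls).

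**Figure D3:**
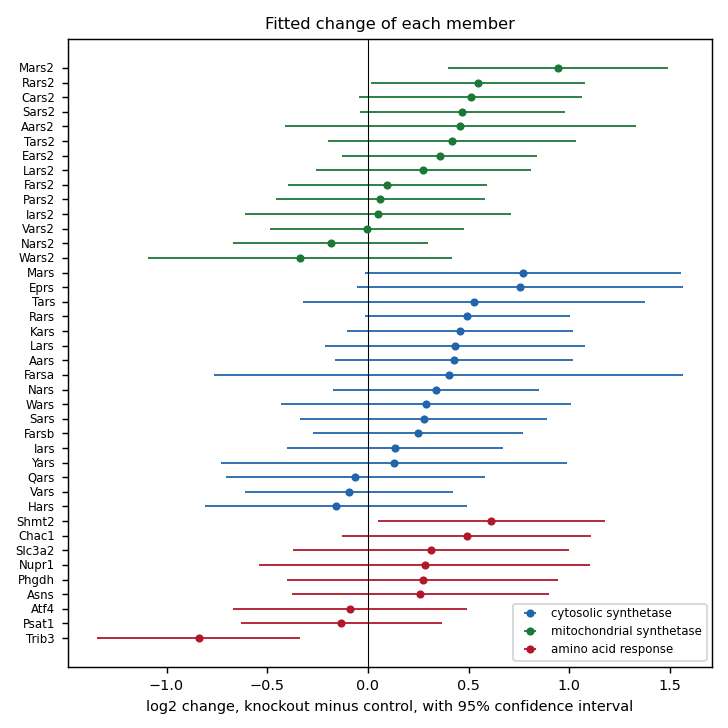
Fitted log2 change, knockout minus control (horizontal axis), of each of the 40 members (vertical axis, by class), with its 95% confidence interval from limma over 2 arrays per genotype. The intervals of Mars2, Rars2 and Shmt2 lie above 0 and that of Trib3 below 0, before any adjustment for the number of genes.

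The promoters of several members are shown because they hold letters that match the composite element of Atf4 and C/EBP. The element was searched as TGATGNAA on both strands, which reads TTNCATCA on the other strand, in RefSeq windows of the build GRCm38.p6 from 250 bases before to 50 after each annotated start. Of 40 members 33 had a window, and 8 of them held a match (24.2%), against 3.97% of all 32851 windows. By class, a match was found in 4 of 11 cytosolic synthetases (Aars, Iars, Tars and Yars), in 4 of 9 response genes (Asns, Chac1, Nupr1 and Trib3) and in 0 of 13 mitochondrial synthetases. The response genes are textbook targets of Atf4, and its elements are known in genes of tRNA charging, so none of these shares is an independent result. Members were counted by gene, also where a gene had several windows, whereas all windows were counted singly. A match is a description of these letters and not a site.

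The windows of Asns, Chac1 and Trib3, which stand for the response genes, and of Aars and Tars, for the synthetases, are given below from 250 bases before the start to 30 after it. Each reads 5′ to 3′ on the gene's strand, and capitals mark the matches. They lie at chr6:7693180-7693459 (minus strand), chr2:119350992-119351271 (plus), chr2:152344031-152344310 (minus), chr8:111033592-111033871 (plus) and chr15:11399629-11399908 (minus).
Asns: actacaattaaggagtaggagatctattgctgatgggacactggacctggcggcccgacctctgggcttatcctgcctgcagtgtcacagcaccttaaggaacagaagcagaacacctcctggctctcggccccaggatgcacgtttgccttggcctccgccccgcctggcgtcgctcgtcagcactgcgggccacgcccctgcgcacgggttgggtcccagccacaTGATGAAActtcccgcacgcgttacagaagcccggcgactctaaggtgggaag
Chac1: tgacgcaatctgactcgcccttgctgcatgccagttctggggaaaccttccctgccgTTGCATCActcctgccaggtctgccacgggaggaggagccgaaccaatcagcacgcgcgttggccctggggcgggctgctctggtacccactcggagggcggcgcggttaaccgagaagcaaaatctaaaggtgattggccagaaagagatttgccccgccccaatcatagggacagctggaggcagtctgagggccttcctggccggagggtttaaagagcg
Trib3: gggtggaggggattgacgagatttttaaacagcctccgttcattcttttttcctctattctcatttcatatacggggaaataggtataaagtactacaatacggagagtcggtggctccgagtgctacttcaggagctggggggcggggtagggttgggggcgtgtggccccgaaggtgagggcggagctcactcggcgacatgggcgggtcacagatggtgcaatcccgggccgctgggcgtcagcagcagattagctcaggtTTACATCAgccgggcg
Aars: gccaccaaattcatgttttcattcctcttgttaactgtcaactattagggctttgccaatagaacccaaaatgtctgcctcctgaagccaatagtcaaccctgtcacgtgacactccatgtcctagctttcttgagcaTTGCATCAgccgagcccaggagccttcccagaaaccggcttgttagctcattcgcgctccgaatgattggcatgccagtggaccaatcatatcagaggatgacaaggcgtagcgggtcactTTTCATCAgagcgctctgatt
Tars: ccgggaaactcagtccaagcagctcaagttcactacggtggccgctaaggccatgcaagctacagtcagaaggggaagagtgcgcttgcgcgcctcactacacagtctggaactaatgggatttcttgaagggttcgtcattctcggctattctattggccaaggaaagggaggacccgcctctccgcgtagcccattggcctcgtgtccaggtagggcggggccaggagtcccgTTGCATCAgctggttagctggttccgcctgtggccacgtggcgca

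Counted from the annotated start, the first base of the match was at −23 in Asns, −193 in Chac1, −15 in Tars and 15 in Trib3, and Aars held 2 matches. The changes of the 8 genes with a match ran from −0.84 in Trib3 to 0.53 in Tars. Mars, Mars2 and Shmt2, which had the largest positive changes of their classes, had a window without these letters.

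Atf4, the transcription factor of the response, was at 9.29 and 9.26 in control cells against 9.41 and 8.96 in knockout cells. The knockouts lay on either side of the controls, and the change was −0.09 ± 0.23 (limma, adjusted p = 0.876). Atf4 is controlled largely at translation, which these arrays do not measure.

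The amino acid synthesis genes differed among themselves. Asns, which makes asparagine, was at 7.99 and 7.51 against 7.85 and 8.17 (0.26 ± 0.26). Phgdh, the first enzyme of serine synthesis, was at 8.02 and 7.64 against 8.36 and 7.84 (0.27 ± 0.27), and Psat1, the next enzyme, at 9.55 and 9.44 against 9.27 and 9.45 (−0.13 ± 0.20). In these 3 genes the genotypes overlapped, and Psph, the last enzyme of that path, was not above background on any array.

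Shmt2, the mitochondrial hydroxymethyltransferase that passes a carbon of serine to folate, was the response gene with the largest positive change. It was at 6.91 and 6.52 in control cells against 7.38 and 7.27 in knockout cells, with both knockouts above both controls. The change was 0.61 ± 0.23 (unadjusted p = 0.0377, adjusted p = 0.305, limma). Of the cystine and large amino acid carriers, Slc3a2, the shared heavy chain, was at 4.81 and 4.85 against 4.81 and 5.48 (0.31 ± 0.28), so knockout replicate 3 alone stood out. Slc3a2 was dim, and its change was 0.11 without background correction. Slc7a11 was not above background on any array.

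Trib3, a pseudokinase that Atf4 induces and that damps it in turn, was the one member of this class with both knockouts below both controls. It was at 5.30 and 5.18 in control cells against 4.50 and 4.30 in knockout cells, with deposited signals of 121.5, 105.7, 99.4 and 100.7. Both knockout signals were under the 95th percentile of the negative controls of their arrays. The change of −0.84 ± 0.20 (unadjusted p = 0.00682, adjusted p = 0.237, limma) was −0.26 without background correction. Chac1, which breaks down glutathione, was also dim, at 4.41 and 4.67 against 5.27 and 4.79 (0.49 ± 0.25), with the knockouts higher. Its detection p was under 0.05 on control replicate 2 and knockout replicate 1 only. On the other arrays its signal was under the 95th percentile of the negative controls. The change of Chac1 was 0.15 without background correction. Nupr1, a small stress-induced nuclear protein gene, was at 6.55 and 6.97 against 7.45 and 6.64 (0.28 ± 0.33) and overlapped.

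Ppp1r15a, whose product Gadd34 brings a phosphatase to eIF2-alpha and so restores translation, differed more than any of the 40 members. Its row was at 8.08 and 9.07 in control cells against 6.41 and 6.44 in knockout cells, with deposited signals of 482.5 and 604.4 against 146.1 and 139.8. The knockouts were nearly equal and lay far below both controls. The change was −2.15 ± 0.35, a 4.44-fold lower level, with an adjusted p of 0.181 in limma, and it ran from −2.64 to −1.66 when single arrays were left out. With Ppp1r15a counted among the response genes their median was 0.27. Ppp1r15a is also an immediate early gene, and 8 of 8 measured stress and immediate early genes (of 10 listed) were lower in every scaling, all 8 without overlap against 28.1% of all genes. Of that list, Ier2 and Fosb had a detection p under 0.05 on the control arrays only, so the filter favoured their being lower. The summed level of that list was 2966 and 8835 in control cells against 1770 and 1218 in knockout cells. Fos, for example, was at 8.19 and 10.63 against 7.15 and 5.49. Whether this shift and that of Ppp1r15a share a source was not tested.

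**Figure D4:**
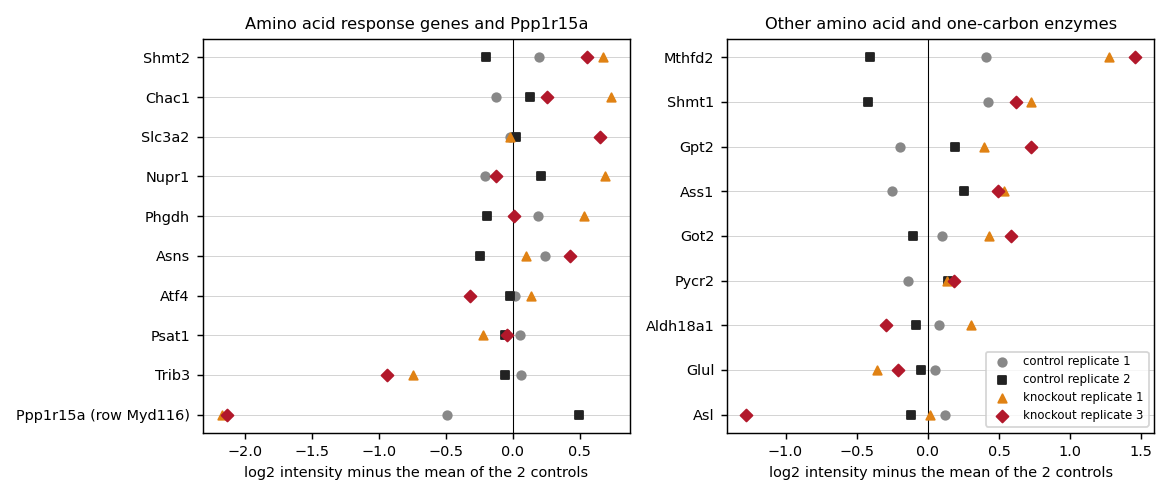
Log2 intensity on the 4 arrays, as the difference from the mean of the 2 controls (horizontal axis), for the 9 response genes with Ppp1r15a (left) and for 9 of the 10 measured other enzymes of amino acid and one-carbon metabolism (right), on separate horizontal scales. Both knockouts lie more than 2 below the control mean for Ppp1r15a, and above 1 for Mthfd2.

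Other genes of the pathway were read from lists, which were chosen with earlier results of these data known. Of 10 measured enzymes of amino acid and one-carbon metabolism (of 19 listed), 8 were higher and 2 lower, with a median change of 0.51, and 2 had an unadjusted p under 0.05, both higher (20%, against 6.55%). Under median scaling 1 of the 10 was above 0, and 8 lay above the median of all genes. Mthfd2, which works next to Shmt2 in the mitochondrial folate path, was at 8.02 and 7.21 in control cells against 8.89 and 9.07 in knockout cells. Its change was 1.36 ± 0.31 (unadjusted p = 0.00536, adjusted p = 0.237, limma), and it was 0.47 under median scaling. Shmt1, the cytosolic counterpart of Shmt2, was at 8.19 and 7.35 against 8.50 and 8.39 (0.67 ± 0.32). Asl, of arginine synthesis, was at −0.63 ± 0.43.

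Of 12 measured synthetase partners and helpers (of 14 listed), 9 were higher and 3 lower, with a median of 0.18. Aimp2, a scaffold of the multi-synthetase complex, was at 8.16 and 7.93 against 8.59 and 8.85 (0.67 ± 0.22, adjusted p = 0.276). Qrsl1 and Gatb, subunits of the amidotransferase that completes mitochondrial glutaminyl-tRNA, were at 0.56 ± 0.22 (adjusted p = 0.320) and 0.45 ± 0.22. Dtd1, which removes D-amino acids from tRNA, was at −0.48 ± 0.24. Under median scaling all 12 were below 0, and 8 of them lay above the median of all genes.

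The upstream and stress genes did not share a direction under quantile normalization. Under median scaling 0 of 8, 1 of 7 and 1 of 12 in the following lists were above 0. In the same order, 4, 4 and 5 genes lay above the median of all genes there. Of 8 measured eIF2-alpha kinases and stress factors (of 15 listed), 5 were higher and 3 lower. Cebpb (0.70 ± 0.32) and Atf5 (0.46 ± 0.22), both bZIP factors, were wholly above the controls, and Ddit3, which encodes Chop, was at −0.44 ± 0.20. Impact, an inhibitor of Gcn2, was at 7.60 and 8.26 against 7.21 and 7.26 (−0.69 ± 0.27, adjusted p = 0.318). Eif2ak4, the gene of Gcn2 itself, was not among the genes tested. Of 7 measured amino acid transporters (of 12 listed), 3 were higher and 4 lower, and 0 had an unadjusted p under 0.05 in limma. Slc38a2, a neutral amino acid carrier, was at −0.51 ± 0.32 and Slc38a9, a lysosomal one, at −0.39 ± 0.30. Slc7a6 and Slc7a1, which carry basic amino acids, were at 0.31 ± 0.33 and 0.23 ± 0.23. Of 12 measured other Atf4 targets and brakes on mTORC1 (of 17 listed), 6 were higher and 6 lower. Ddit4, a stress-induced inhibitor of mTORC1, was at 7.56 and 7.62 against 6.87 and 6.53 (−0.89 ± 0.22, adjusted p = 0.237). Nprl2, of the GATOR1 complex, was at −0.54 ± 0.24, and Gpt2, an alanine transaminase also counted among the enzymes, at 0.56 ± 0.24.

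The classes also differed by array. Relative to the control mean, the median of the cytosolic synthetases was 0.16 and 0.47 on knockout replicates 1 and 3, against 0.10 and −0.10 on the controls. For the mitochondrial synthetases it was 0.18 and 0.33, with the controls at 0.06 and −0.06. For the response genes it was 0.14 and 0.01, with the controls at 0.06 and −0.06. The synthetase medians were thus larger on knockout replicate 3, and the response genes did not follow them there. That array had the fewest gene rows with a detection p under 0.05. Across the 40 members Pearson's r between arrays was 0.955 to 0.974, a description in which the arrays share probes and genes are not independent replicates.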

How the data were processed

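Total RNA from sorted LSK cells was amplified to biotinylated cRNA and hybridised to Illumina bead arrays, 1 per pool of mice, per the labels' protocols. The deposited intensity file held 1 number per gene name. Its values were taken to be without background subtraction or normalization, as its name calls them non-normalized. The same file held a detection p-value and a bead standard error. How probes were combined into a gene value is unknown. The deposited normalized intensity table has unnamed rows and served for a count only.

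Names were updated through RefSeq (GRCm38.p6). Of 30854 gene rows 8079 found no match and kept the file's name, and 1 further row, overwritten by text, was left out. Intensities were corrected by normexp on 936 negative controls, then quantile-normalized with an added 16 and taken to log2 (neqc of limma 3.58.1, R 4.3.3). Genes with a detection p under 0.05 on at least 2 arrays were kept, with the brightest row per gene but the row named by the rule for members. Knockout minus control was tested with limma (lmFit, eBayes, no covariate, two-sided) and Benjamini-Hochberg adjustment over 11538 genes. The fit was tested on simulated data. Errors are standard errors with 2 arrays per genotype, and the number of arrays limits the precision. The labels give pools of mice as samples.

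The members and lists were chosen with earlier results of these data known. Every member is named with its change. Some genes are not reported here. Array values are given for the response genes and for the 8 cytosolic and 6 mitochondrial synthetases with the largest changes, and of each other list at most the 4 largest. Alternatives were other background corrections, normalizations, filters and variance models, and leaving out each array.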

Additional observations from a re-analysis of the deposited data

How the results depend on the processing

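None of the 40 members passed the adjusted threshold under the alternatives run. Over all genes, 3 passed with cyclic loess, 17 with detection on all 4 arrays, 940 with median scaling and 15 with a trended, robust prior. Members at an unadjusted p under 0.05 and higher, with the share of all genes in brackets, numbered 7 without background correction (7.65%), 5 with an offset of 50 (7.39%), 5 with cyclic loess (7.1%), 5 of 29 with detection on all 4 arrays (9.36%), 0 with median scaling (0.173%), 7 with no filter (4.94%) and 6 with a trended, robust prior (6.66%). Those lower numbered 5 with median scaling (37.9%), 0 with detection on all 4 arrays (8.07%) and 2 with Ppp1r15a included (8.77%). The cytosolic median was −0.42 with median scaling. The mitochondrial median was 0.16 without background correction and −0.56 with median scaling. With the brightest row of each gene, a choice made after seeing the data, it was 0.19. The response median was 0.15 without background correction and −0.65 with median scaling. On leaving out single arrays the counts of higher members ran from 2 to 4, the cytosolic median from 0.16 to 0.47, the mitochondrial from 0.18 (without knockout replicate 3) to 0.33, and the response median from 0.0091 (without knockout replicate 1) to 0.29. Without control replicate 2 it was 0.08, and 0.14 without knockout replicate 3. Members whose sign turned with median scaling, where all genes had a median of −0.70, were Aars −0.42, Aars2 −0.038, Asns −0.69, Cars2 −0.45, Ears2 −0.61, Eprs −0.16, Fars2 −0.72, Farsa −0.51, Farsb −0.42, Iars −0.83, Iars2 −0.86, Kars −0.42, Lars −0.39, Lars2 −0.69, Mars −0.21, Mars2 −0.036, Nars −0.59, Nupr1 −0.65, Pars2 −0.80, Phgdh −0.65, Rars −0.35, Rars2 −0.39, Sars −0.70, Sars2 −0.13, Shmt2 −0.38, Slc3a2 −0.22, Tars −0.20, Tars2 −0.52, Wars −0.71, Yars −0.17. Cars2 was at −0.029 with its brightest row. Members whose sign turned on leaving out a single array ran as follows: Atf4 −0.32 to 0.14, Farsa −0.31 to 1.12, Hars −0.46 to 0.14, Iars −0.033 to 0.30, Iars2 −0.24 to 0.34, Nupr1 −0.12 to 0.69, Pars2 −0.044 to 0.16, Qars −0.35 to 0.23, Slc3a2 −0.021 to 0.65, Vars −0.20 to 0.011, Vars2 −0.044 to 0.036, Wars −0.010 to 0.59, Yars −0.36 to 0.62. The cause of these shifts was not tested. Ppp1r15a was at −3.04 with median scaling, where its adjusted p was 0.0228. No paired analysis was possible because the genotypes share only replicate number 1.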

Other observations

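Among the rows named by the rule that failed the detection limit, those of the aspartyl and glycyl enzymes were bright. Dars had deposited signals of 803.4 and 462.1 in control cells against 483.4 and 280.6 in knockout cells, and a detection p under 0.05 on knockout replicate 3 alone. Gars had signals of 2421.2 and 1246.3 against 1640.1 and 1109.4, and a detection p under 0.05 on control replicate 1 alone. Their differences, with no test, were −0.16 and 0.20 on the log2 scale. Cars, Hars2 and Yars2 were dim, with differences between −0.14 and 0.19.

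A second row of Lars, not named by the rule, was at 5.43 and 6.37 in control cells against 6.94 and 7.05 in knockout cells. Its difference of 1.10 is larger than the 0.43 of the row that bears the gene's name.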
